A study of Mus musculus with 26 samples.

Results

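The replication-dependent core histone genes are the clustered genes for histones H2A, H2B, H3 and H4 that supply the protein for newly copied DNA. Protein-coding genes whose symbol is H2ac, H2bc, H3c or H4c followed by a number were taken as the family, which gave 61 genes (18 H2ac, 18 H2bc, 12 H3c and 13 H4c) of 56941 in the count table. One of them, H2ac10, was set beside the rest. It was chosen by its measured fold change between high intensity and the controls in earlier results of the same libraries. Its values against the controls are therefore given as a description, with no test.

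The RNA came from spheroids of motor neurons derived from the mouse embryonic stem cell line HBG3, which carries a GFP reporter for HB9, the motor neuron transcription factor encoded by Mnx1. All 5 groups carried that reporter and passed through the same steps: expansion on feeder cells, differentiation with retinoic acid and purmorphamine, CNTF and GDNF from day 5, and seeding on fibrin at about day 8. Spheroids lay on a silicone array that magnets moved each day for 30 min at 4 Hz (the actuated array, n = 4) or on a still array of that kind (the static array, n = 4). The other groups were labelled high intensity (n = 6), low intensity (n = 6) and biochemical control (n = 6). The design text speaks of medium from optically stimulated or unstimulated muscle, under sample names that the labels do not tie to either intensity, so these groups are named here by intensity alone. One cell line was used, and nothing states that replicates were separate cultures, so p-values measure the spread between these samples only.

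Replication-dependent histone genes are transcribed mainly in S phase, when DNA is copied, and are silent or low in cells that have left the cell cycle, as neurons have. Most of their mRNAs end in a short stem-loop in place of a poly(A) tail. The stem-loop is bound by SLBP, which takes part in processing, export, translation and decay of the mRNA. The libraries were made from total RNA by random priming with removal of rRNA and without selection for poly(A), so histone mRNAs of either kind could enter them.

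Of 26 libraries, 5 held at most 1000000 counts on protein-coding genes (control replicate 4, low intensity 6, high intensity 4 and 5, static array 3), with totals down to 1536 counts. The results use the 21 deeper libraries: 5 control, 5 low-intensity, 4 high-intensity, 3 static and 4 actuated. These held 1551334 to 3971348 counts each in the biochemical groups and 7269276 to 13162635 on the arrays, so depth and type of culture go together between the arrays and the controls and cannot be told apart. Members received 985 to 4430 counts per library in the biochemical groups and 6025 to 13512 on the arrays. Levels are CPM (counts scaled to 1000000 per library) adjusted by TMM unless TPM is named. TPM, which divides by transcript length, is used wherever genes are compared with each other.

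The sequences of these genes bear on how far each one can be read, because several are near-copies. In the GENCODE vM21 annotation (GRCm38), 48 members lie on chromosome 13, 10 on chromosome 3, 2 on chromosome 11 and 1 on chromosome 6, and 56 are single-exon genes. Each annotated member transcript was divided into all stretches of 50 bases, the length of 1 read, and each stretch was searched in the transcripts of all other genes. The median member had 46.4% of its stretches to itself. For 29 members at least 50% were unique, and for H2ac19 and H3c14 none was. H2ac10, a single-exon gene on the plus strand of chromosome 13 (ENSMUSG00000061991), had 20.3% unique stretches, and its coding sequence differed from that of H2ac7 at 5 of 390 bases (98.7% identity). The following coding stretch, at chr13:23534153-23534251 (GRCm38, plus strand, in the single exon of H2ac10), is shown because 1 substitution is all that separates both genes over its 99 bases. The capital letter marks coding base 292, counted from 1 at the start codon, and the substitution is T292C with the H2ac10 base first.
H2ac10: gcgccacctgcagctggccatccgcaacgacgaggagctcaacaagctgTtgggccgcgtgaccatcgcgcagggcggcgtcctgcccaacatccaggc
H2ac7: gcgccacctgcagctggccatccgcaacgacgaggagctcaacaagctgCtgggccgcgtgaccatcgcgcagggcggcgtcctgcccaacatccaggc
All 14 other H2ac members with a coding sequence of the same length carry C at that base. How the deposited counts divided reads between such copies was not stated in the protocols at hand, so the value of any single member with few unique stretches is uncertain.

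The histone stem-loop was searched on the transcribed strand, with 1 base pair of the stem left free. It occurred in 38 of 141767 annotated transcripts (0.0268%), of which 32 belonged to members, and 30 of the 61 members had it. Its form differed by class, as these lines show.
H2ac, H2bc and H3c members: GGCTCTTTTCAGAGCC
H4c members: GGCCCTTTTCAGGGCC
The first form was found in 10 H2ac, 8 H2bc and 5 H3c members, and the second in 7 H4c members. The annotated transcript of H2ac10 had no match. It is 399 bases long with 390 coding bases, so it holds little past the stop codon, and 11 members have no base beyond the coding sequence.

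Promoter windows of 300 bases (250 before to 50 after the start, RefSeq, GRCm38.p6) were matched for 52 members. Windows are shown for H2ac10 and for H2ac15 and H2ac6, the members that passed a test below. Capitals mark TATAAA and CCAAT, the core letters of the TATA box and of the site bound by NF-Y, on either strand (a CCAAT on the other strand reads ATTGG).
H2ac10 (chr13:23533625-23533924, plus strand): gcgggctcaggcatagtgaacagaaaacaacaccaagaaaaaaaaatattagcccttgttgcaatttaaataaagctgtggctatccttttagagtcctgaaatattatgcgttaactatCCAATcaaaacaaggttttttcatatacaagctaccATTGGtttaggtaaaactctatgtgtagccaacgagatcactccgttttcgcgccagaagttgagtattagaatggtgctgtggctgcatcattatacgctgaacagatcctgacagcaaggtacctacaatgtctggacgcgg
H2ac15 (chr13:21753863-21754162, minus strand): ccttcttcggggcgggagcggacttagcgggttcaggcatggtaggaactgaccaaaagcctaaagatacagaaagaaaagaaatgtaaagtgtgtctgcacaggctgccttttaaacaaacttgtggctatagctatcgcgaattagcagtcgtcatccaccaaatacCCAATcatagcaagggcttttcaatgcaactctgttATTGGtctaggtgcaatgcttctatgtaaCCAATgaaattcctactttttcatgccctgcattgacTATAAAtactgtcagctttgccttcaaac
H2ac6 (chr13:23683910-23684209, minus strand): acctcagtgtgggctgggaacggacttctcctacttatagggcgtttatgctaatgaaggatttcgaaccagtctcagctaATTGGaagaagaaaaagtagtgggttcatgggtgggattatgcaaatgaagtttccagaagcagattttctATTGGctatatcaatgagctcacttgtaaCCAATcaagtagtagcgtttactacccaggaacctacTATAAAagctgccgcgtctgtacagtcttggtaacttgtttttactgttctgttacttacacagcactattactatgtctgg
H2ac10 had 0 TATAAA and 2 CCAAT, whereas H2ac15 and H2ac6 each had 1 TATAAA and 3 CCAAT. Over the family, TATAAA was present in 30 of 52 windows, against 13.6% of all 32851 RefSeq windows of this length. CCAAT was present in 44 of 52, against 37.4%, and split by class: 17 of 17 H2ac, 14 of 14 H2bc and 10 of 10 H3c windows held it, and 3 of 11 H4c windows did. ATTTGCAT, the octamer recognised by OCT1, was present in 13 of 52 windows (6 H2ac and 7 H2bc), against 1.74%. Motifs were counted on both strands, and matches of different motifs can share bases at their ends. Windows of neighbouring H2ac and H2bc genes transcribed in opposite directions can cover the same bases. A single site can then count for both genes, so the H2ac and H2bc counts are not separate. A match is a description of letters only. H2ac15 and H2ac6 start 296 and 251 bases from a divergently transcribed H2B gene, H2bc15 and H2bc4. There were 24 members in such pairs with starts at most 500 bases apart, while H2ac10 had no divergent partner and its nearest member, H3c8, started 1516 bases away.

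Core histone RNA was present in every deeper library, with 45 to 57 members detected. The summed level of the 61 members was 603 ± 92.5 CPM in the controls (SD, n = 5), 888 ± 347 CPM at low intensity (n = 5), 944 ± 540 CPM at high intensity (n = 4), 1004 ± 231 CPM on the static array (n = 3) and 963 ± 227 CPM on the actuated array (n = 4). Control libraries ran from 492 to 733 CPM. Above 733 CPM lay 3 of 5 low-intensity, 2 of 4 high-intensity, 3 of 3 static and 4 of 4 actuated libraries. High-intensity replicate 3 alone reached 1745 CPM, and the other 3 high-intensity libraries lay at 565 to 750 CPM, overlapping the controls. In bulk RNA, more cells that express a gene and more RNA per cell cannot be told apart.

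The 4 classes, which enter the nucleosome in equal number, had like shares of family TPM in all groups. H2ac made up 43.6 to 48.2% of family TPM as group means, H2bc 24.9 to 29.0%, H3c 11.2 to 13.3% and H4c 12.7 to 15.6%. On the TPM scale the family sum was 1336 ± 184 in the controls, 3368 ± 1089 at low intensity, 3061 ± 1113 at high intensity, 3536 ± 573 on the static array and 3742 ± 140 on the actuated array. All 16 libraries outside the controls then lay above the highest control library, at 1454 TPM. The TPM scale itself moved the median of all genes fitted, on log2(TPM + 1), by 0.53 (high intensity), 0.64 (low intensity) and 0.50 (static array) against the controls. Against the controls, the difference in mean log2 family sum was 1.15, 1.28 and 1.40 in that order on the TPM scale. On the CPM scale it was 0.51, 0.48 and 0.72. Here the mean was taken after the log, so these values differ from log2 ratios of the group means above.

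**Figure D1:**
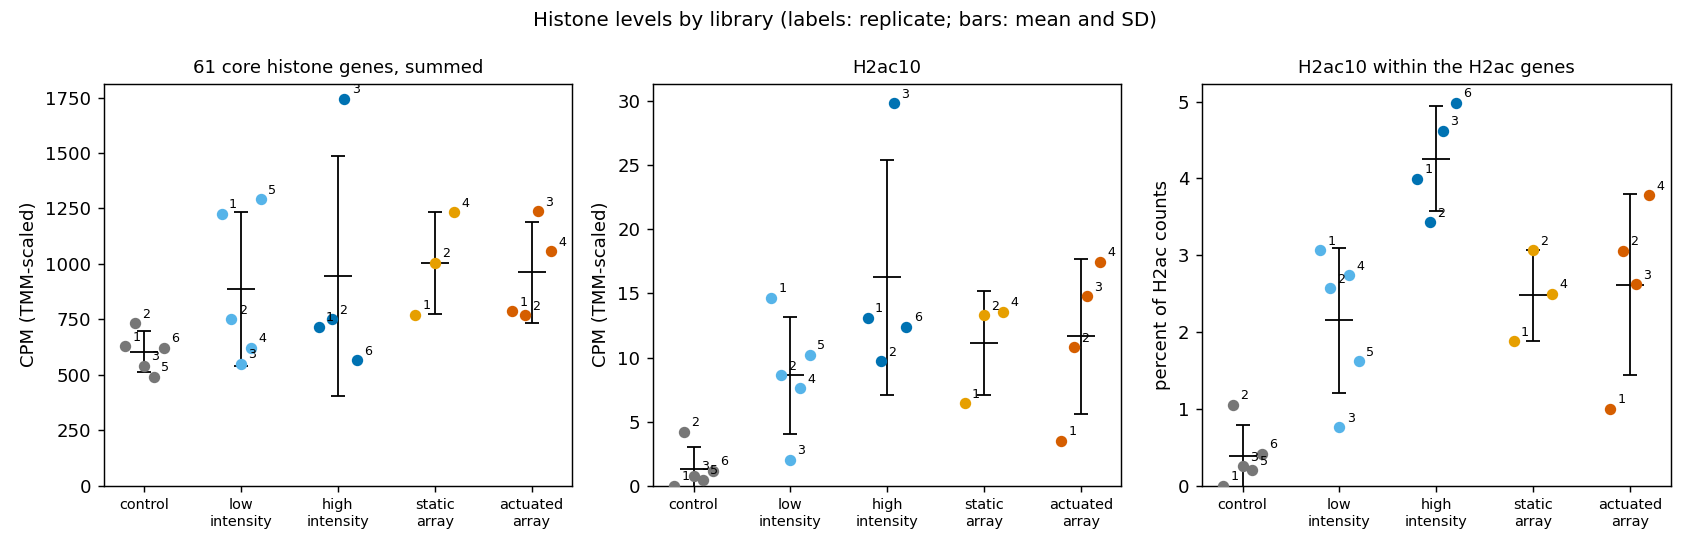
Each point is 1 deeper library, numbered by replicate, with the group mean and SD as bars: the summed CPM of the 61 core histone genes (left), the CPM of H2ac10 (middle) and the percentage of H2ac counts that fell on H2ac10 (right). High-intensity replicate 3 stands at 1745 CPM for the family, and every H2ac10 share at high intensity, 3.43 to 4.98%, lies above the highest control share of 1.05%.

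A few members carried most of the family's level. H2ac18 made up 12.2% of family TPM over the deeper libraries (mean 356 TPM), H2bc18 10.3% (302 TPM) and H2ac13 7.84% (229 TPM), and 7 members made up 50.2%. H4c12 (133 TPM) and H4c8 (81.2 TPM) led the H4 genes, and H3c13 (83.8 TPM) and H3c2 (70.8 TPM) the H3 genes. H2ac10 ranked the fifteenth of 61, at 54.0 TPM or 1.85% of the family. At the other end, H2ac23 had 0 counts in every deeper library, and H2ac1, H2bc1, H2bc23 and H3c14 also missed the filter on low counts, which left 56 members fitted.

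H2ac10 was close to absent in the controls and present in every deeper library of the other groups. Of their shallow libraries, static replicate 3, low-intensity 6 and high-intensity 4 had 0 counts of it, and high-intensity 5 had 4. Its level in control replicates 1, 2, 3, 5 and 6 was 0, 4.21, 0.769, 0.468 and 1.16 CPM, from 0, 12, 2, 1 and 4 counts. At low intensity, replicates 1 to 5 had 14.7, 8.61, 2.04, 7.59 and 10.2 CPM. At high intensity, replicates 1, 2, 3 and 6 had 13.1, 9.73, 29.8 and 12.4 CPM. On the static array, replicates 1, 2 and 4 had 6.44, 13.3 and 13.6 CPM, and on the actuated array replicates 1 to 4 had 3.52, 10.8, 14.8 and 17.5 CPM. All high-intensity and static libraries lay above every control, while low-intensity replicate 3 and actuated replicate 1 fell below control replicate 2. In order of the mean, high intensity (16.3 ± 9.16 CPM) was followed by the actuated array (11.6 ± 6.07), the static array (11.1 ± 4.04), low intensity (8.62 ± 4.56) and the controls (1.32 ± 1.67). Every group overlapped its neighbour in that order.

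As a description, the H2ac10 difference from the controls was among the 2 largest of the family. The mean level was 12.3 times the control mean at high intensity, 6.53 times at low intensity, 8.41 times on the static array and 8.82 times on the actuated array. Without control replicate 2, the library that holds most of the control counts, these ratios were 27.2, 14.4, 18.5 and 19.4. The fitted log2 fold change was 3.59 (SE 0.66) at high intensity, the first of 56 members, 2.70 (SE 0.65) at low intensity, the second, and 3.05 (SE 0.68) on the static array, the first. These comparisons share the control libraries, and the first of them is the one in which the gene was singled out, so none is offered as a test. In share of all H2ac counts, H2ac10 had a mean of 0.386% in the controls, 2.15% at low intensity, 4.26% at high intensity, 2.48% on the static array and 2.62% on the actuated array.

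Actuation is the comparison free of that choice. There H2ac10 differed by a log2 fold change of 0.07 (SE 0.60, edgeR quasi-likelihood test, Benjamini-Hochberg adjusted p = 1.0), and the actuated libraries overlapped the static ones throughout. None of the 56 members passed the adjusted threshold of 0.05 between actuated and static arrays with edgeR, where 0% of the 14730 genes fitted did. At an unadjusted p under 0.05 the count of members was also 0, where 0.38% of all genes passed, and DESeq2 and limma-voom called 0 as well. Of the members, 20 had a positive fold change, and the median was -0.11 beside -0.00 over all genes. No member lay higher in every actuated than in every static library, where 2.1% of all genes did, and 1, H4c18, lay lower throughout, where 2.23% of all genes did, so its share of 56 is no more than the background. Its actuated libraries had 1.96, 4.04, 1.99 and 3.30 CPM, against 6.56, 6.84 and 6.53 CPM.

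**Figure D2:**
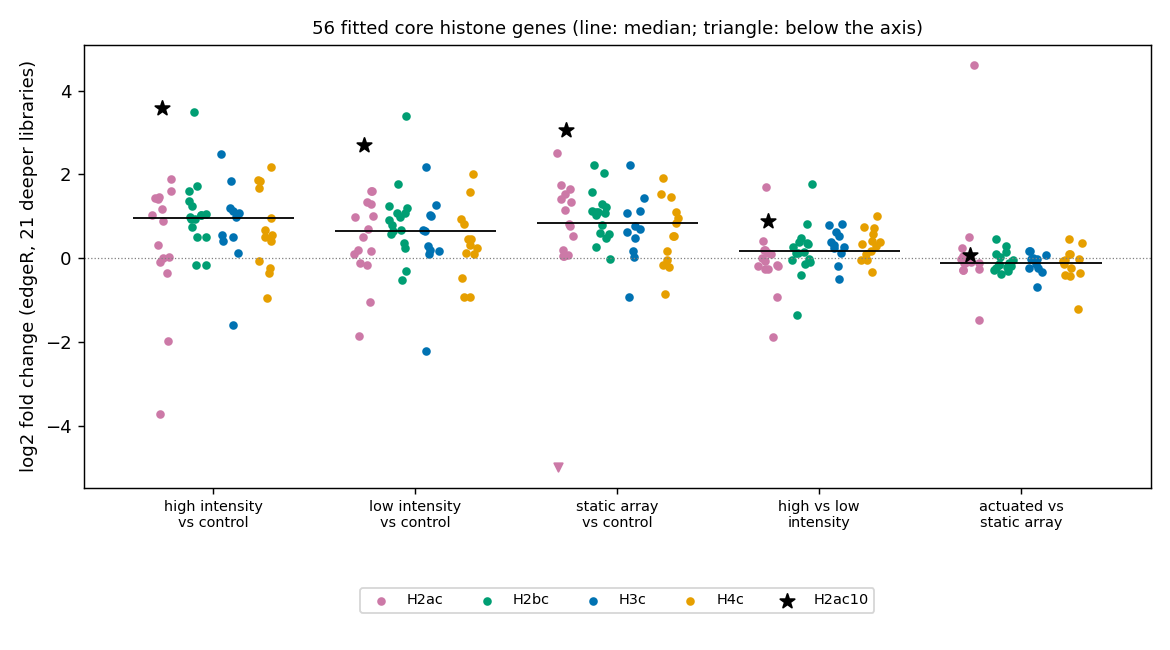
Each point is 1 of the 56 fitted core histone genes, coloured by class, at its edgeR log2 fold change in each of 5 comparisons, with the median as a line and H2ac10 as a star. The medians are 0.95, 0.64, 0.83, 0.17 and -0.11 from left to right. The triangle is H2ac19, which had 0 counts in the static libraries, so its fitted value has no fixed size.

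High intensity against the controls asked how the spheroids differed with the medium of that label. Of the 56 members, 45 had a positive fold change, with a median of 0.95 beside 0.00 over all genes. H2ac15 rose, by 1.60 on the log2 scale (SE 0.36, edgeR adjusted p = 0.0452). It was the 1 member called of the 55 other than H2ac10, where 0.462% of all genes fitted were called. At an unadjusted p under 0.05 with edgeR, 19 of these 55 were higher and 1 was lower, where 15.9% of all genes passed in either direction. Of those 55, 4 (H2ac15, H2bc13, H2bc3 and H3c2) lay higher in every high-intensity than in every control library, where 2.07% of all genes did, and 0 lay lower, where 1.49% did. Among the classes, the median fold change was 0.96 for H2ac, 1.01 for H2bc, 0.99 for H3c and 0.54 for H4c. The family's summed level depended on 1 library. Without high-intensity replicate 3 the difference in mean log2 level fell from 0.51 to 0.17, and with all 26 libraries it was -0.0305.

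H2ac15 (ENSMUSG00000063021), an H2A gene on chromosome 13 with 47.7% unique stretches, was the member that separated most fully from the controls. Its control libraries had 4.31, 15.4, 13.1, 3.28 and 9.27 CPM. At high intensity they had 25.5, 20.7, 42.5 and 22.3 CPM, and at low intensity 39.0, 26.6, 18.1, 15.8 and 36.7 CPM. Every one of these 9 libraries, and all 3 static (20.4, 19.1 and 29.5 CPM) and all 4 actuated ones (20.9, 19.2, 35.5 and 20.2 CPM), exceeded the highest control. Yet the high-intensity call was narrow. It was lost in 13 of the 21 fits that left out 1 library (adjusted p up to 0.210, without high-intensity replicate 3). In those fits the fold change stayed between 1.33 and 1.87.

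Low intensity against the controls gave the same member, and both comparisons share the same control libraries. H2ac15 rose by 1.60 on the log2 scale (SE 0.35, edgeR adjusted p = 0.0370), the sole member called of the 55 other than H2ac10, where 0.597% of all genes were. The call was lost in 7 of 21 fits without 1 library, with adjusted p up to 0.120 when low-intensity replicate 1 was left out, and the fold change stayed between 1.40 and 1.87. H2ac15 was also the sole member of 56 with every low-intensity library above every control. That is near the background, as 1.28% of all genes had that pattern. Of the members 0 lay lower, where 0.971% of all genes did. Positive fold changes were found for 46 members, with a median of 0.64 beside -0.01 over all genes. At an unadjusted p under 0.05 with edgeR, 15 of the 55 other than H2ac10 were higher and 1 was lower. Of all genes, 15.2% passed in either direction. By class the median was 0.59 for H2ac, 0.85 for H2bc, 0.64 for H3c and 0.32 for H4c.

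High against low intensity showed no member called by edgeR, where 0% of all genes were called. At an unadjusted p under 0.05, 1 of 56 members passed, where 7.68% of all genes did, and DESeq2 called 0. That member, H2bc21, was the only one with every high-intensity library (2.77, 4.86, 3.27 and 4.13 CPM) above every low-intensity library (2.77, the same after rounding, 0.375, 1.36, 0.632 and 0 CPM), where 1.28% of all genes lay higher, and 0 members lay lower, where 1.35% did. Its fold change of 1.77 (SE 0.85) had an adjusted p of 0.647 with edgeR. The median over members was 0.17, and 37 were positive.

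The static array against the controls compared cultures that differ in platform and depth. H2ac6 (ENSMUSG00000069270) rose by 1.65 on the log2 scale (SE 0.38, edgeR adjusted p = 0.0395). It was the 1 member called of the 55 other than H2ac10, where 0.713% of all genes were called. H2ac6 is an H2A gene of which 85.9% of stretches are unique, and it carries the stem-loop. Its annotated transcript is 2482 bases long, with 390 coding bases and 2010 bases after the stem-loop. H2ac6 ranked 51 of the 61 members by mean TPM, at 5.68 TPM. Control libraries had 4.60, 3.15, 5.38, 6.08 and 2.90 CPM of it, and the static ones 10.97, 9.90 and 20.6 CPM, with no overlap. The actuated array had 18.1, 13.5, 25.7 and 21.4 CPM. The H2ac6 call was lost in 9 of 21 fits without 1 library, with adjusted p up to 0.329 when static replicate 4 was left out, and the fold change stayed between 1.27 and 1.86.

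Of the 55 members other than H2ac10, 12 lay higher in every static than in every control library, where 4.52% of all genes did. One, H4c1, lay lower, where 3.62% of all genes did. The 12 came from all classes: H2ac6, H2ac15 and H2ac24, H2bc7, H2bc12, H2bc18 and H2bc24, H3c2, H3c6 and H3c7, and H4c4 and H4c12. Positive fold changes were found for 49 of 56, with a median of 0.83 beside -0.00 over all genes. At an unadjusted p under 0.05 with edgeR, 18 of the 55 other than H2ac10 were higher and 1 was lower. Of all genes, 12.6% passed in either direction. H3c2, an H3 gene, had 23.6, 28.1 and 39.3 CPM on the static array and 27.1, 30.0, 45.9 and 32.5 CPM on the actuated array, against 8.05, 0, 6.15, 3.74 and 13.3 CPM in the controls. Its fold change of 2.22 (SE 0.59) had an adjusted p of 0.0764 with edgeR. H4c12, the leading H4 gene, had 19.6, 16.7 and 30.2 CPM on the static array against 3.28 to 12.7 CPM in the controls, with a fold change of 1.53 (SE 0.41) and the same adjusted p of 0.0764.

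**Figure D3:**
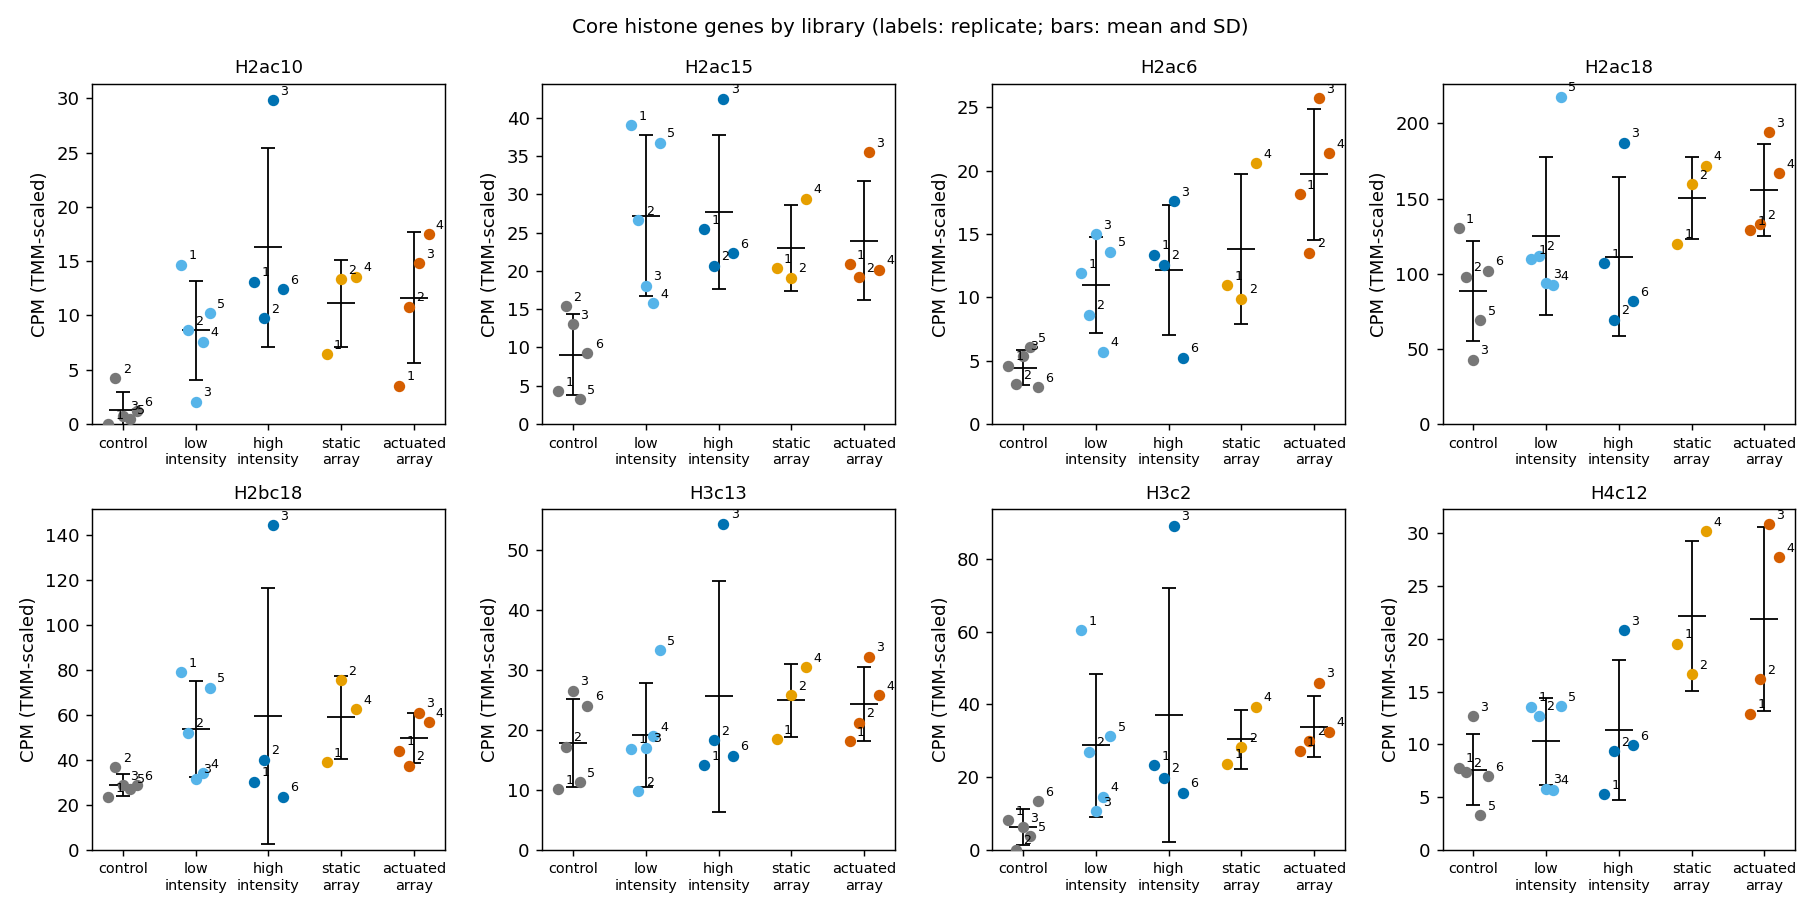
CPM of 8 core histone genes in each deeper library, numbered by replicate, with group mean and SD as bars and a separate vertical scale for each gene. H2ac15 is above the highest control in all 16 other libraries, whereas H2ac18 and H3c13 overlap the controls in every group.

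Against the controls, the most abundant members had smaller fold changes than H2ac10. As H2ac10 was chosen by its fold change in these libraries, that order is no separate result. H2ac18, the leading H2A gene, had 42.7 to 130 CPM in the controls, 92.3 to 218 CPM at low intensity, 69.3 to 187 CPM at high intensity, 120 to 172 CPM on the static array and 129 to 194 CPM on the actuated array. The groups overlapped, and its fold changes of 0.32, 0.50 and 0.76 against the controls (high, low, static) had adjusted p of 0.644, 0.402 and 0.278 with edgeR. H2bc18, the leading H2B gene, had 23.3 to 36.8 CPM in the controls and 38.9, 75.4 and 62.5 CPM on the static array, and reached 144 CPM in high-intensity replicate 3, where the other 3 had 23.7 to 40.1 CPM. H3c13 showed the same single high library, at 54.4 CPM beside 14.1 to 18.2 CPM. H2ac13 (fold change 1.44 at high and 1.60 at low intensity), H2bc15 (0.93 and 0.97) and H4c8 (0.97 and 0.25) did not pass the adjusted threshold in any comparison.

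H2ac19, whose every stretch is shared with another gene, had counts in 6 of 21 deeper libraries. It had 300 counts in control replicate 2, 206 in control replicate 3 and 172 in low-intensity replicate 1, 30 in high-intensity replicate 2, 4 and 17 in actuated replicates 2 and 3, and 0 in every other deeper library. Its neighbour in sequence, H2ac18, has 10.6% unique stretches. Their sum was 125 ± 49.5 CPM in the controls, 135 ± 53.3 at low intensity, 114 ± 50.0 at high intensity, 150 ± 27.2 on the static array and 156 ± 31.4 on the actuated array, differences smaller than the spread between replicates. H2ac7, the nearest copy of H2ac10, had 0 to 6.55 CPM in the controls, 0 to 2.04 at low intensity, 0 to 2.03 at high intensity, 2.08 to 5.92 on the static array and 1.17 to 4.41 on the actuated array. Whether the division of reads among copies moves with the groups was not tested.

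Members with more sequence of their own had smaller median fold changes. The 27 fitted members with at least 50% unique stretches had medians of 0.66, 0.36 and 0.58 against the controls (high, low, static), and the 29 with fewer had 1.02, 0.79 and 1.11. Of the former, 0, 0 and 1 were called. Positive fold changes were found for 20, 20 and 22 of the 27. The 20 fitted members in divergent pairs had medians of 1.12, 0.98 and 1.25, and the 28 with an annotated stem-loop 0.85, 0.53 and 0.68. These are descriptions of overlapping subsets, and no difference between them was tested.

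Across the 21 libraries the members most like H2ac10 by Pearson r of log2(CPM + 1) were H2ac15 (0.86), H2bc3 (0.84) and H2bc4 (0.79). After the group means were removed, r was 0.67, 0.71 and 0.81. H2bc3, an H2B gene with 59.9% unique stretches, had 4.21 to 16.9 CPM in the controls and 17.1 to 27.4 CPM at high intensity. H2bc4, the divergent partner of H2ac6, had 13.8 to 29.8 CPM in the controls and 20.4 to 40.1 CPM at high intensity, which overlap. These libraries share groups and depth, so r is given as a description.

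Over the 21 libraries, the log2 family sum had a Pearson r of 0.84 with the S-phase sum and 0.87 with the mitosis sum, as a description. The highest sums of S-phase and cell-division genes fell in libraries high in histones, but not all libraries kept this order. High-intensity replicate 1 ranked 14 of 21 by family level, but 6 by S-phase genes and 4 by mitosis genes. For mitosis genes 4 of 4 high-intensity libraries lay above the highest control, and for the family 2 of 4 did. High-intensity replicate 3 and low-intensity replicates 5 and 1, all among the 5 highest by family level, had the 3 highest sums of both lists. S-phase and replication genes summed to 395 to 527 CPM in the controls and 486 to 1043 CPM at high intensity, and G2 and mitosis genes to 342 to 489 CPM and 608 to 1871 CPM. At high intensity 28 of 30 S-phase genes were positive (median 0.71), and Rrm1, a subunit of ribonucleotide reductase, rose by 1.04 (edgeR adjusted p = 0.0435). All 20 mitosis genes were positive (median 1.31), and 4 rose: Mki67 by 1.31, the topoisomerase Top2a by 1.30, the checkpoint kinase gene Bub1b by 1.99 and the kinesin gene Cenpe by 1.37 (adjusted p from 0.0357 to 0.0496). All 5 calls at high intensity ended without high-intensity replicate 3, when edgeR called 0 of all genes (1604 at an unadjusted p under 0.05), and limma-voom called 0 of all genes in the 21 libraries. At low intensity 27 of 30 (median 0.58, 0 called) and 20 of 20 (median 1.40) were positive, and Top2a rose by 1.28 (adjusted p = 0.0372). At an unadjusted p under 0.05 with edgeR, 13 of 30 and 18 of 20 passed at high intensity, where 15.9% of all genes did. At low intensity 10 of 30 and 18 of 20 passed, where 15.2% of all genes did. On the static array 26 of 30 (median 0.49) and 20 of 20 (median 0.96) were positive, with 0 called in both lists by edgeR. At an unadjusted p under 0.05, 3 of 30 and 10 of 20 passed, where 12.6% of all genes did. Between actuated and static arrays the medians were -0.14 and -0.01. The part of cell-cycle differences in the histone levels was not tested.

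**Figure D4:**
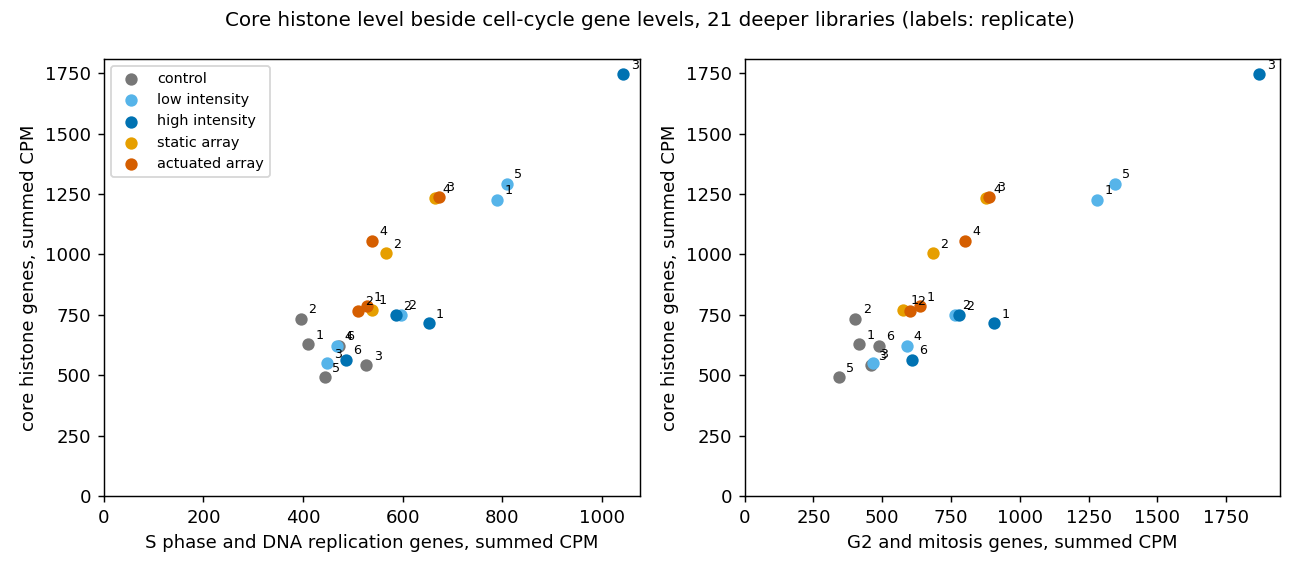
Summed CPM of the 61 core histone genes (vertical) beside the summed CPM of 30 S-phase genes (left) and 20 G2 and mitosis genes (right) in 21 deeper libraries, coloured by group and numbered by replicate. High-intensity replicate 3 is highest on all 3 sums, with 1745, 1043 and 1871 CPM.

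Other histone genes are given by kind. Linker histone genes, which bind the DNA between nucleosomes, had medians of 0.63, 0.66 and 0.89 against the controls (high, low, static), with 6, 6 and 7 of 7 positive. One was called, H1f4 on the static array, which rose by 1.19 (edgeR adjusted p = 0.0378). Replacement variants, which are also made outside S phase and are mostly polyadenylated, had medians of -0.07, 0.05 and 0.36 over 9 genes. Of these, 4, 5 and 8 were positive, and edgeR called 0. At an unadjusted p under 0.05, 2, 2 and 2 passed, where 15.9, 15.2 and 12.6% of all genes did. H3f3a and H3f3b, which encode H3.3, had fold changes of 0.08 and -0.07 at high intensity, and H3f3b had 0.59 on log2(TPM + 1), near the shift of all genes on that scale. Histone chaperones had medians of 0.06, 0.10 and 0.14 over 17 genes, with 0 called and 3, 5 and 4 at an unadjusted p under 0.05.

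Genes that transcribe, process and degrade histone mRNA had medians near 0. Of 18 listed genes, 17 were fitted, with medians of 0.05, -0.04 and -0.01 (high, low, static). Slbp had fold changes of -0.31, -0.14 and 0.17, with adjusted p from 0.326 to 0.714, and at low intensity the sign turned to 0.64 on log2(TPM + 1). Xrn1, an exonuclease that degrades RNA from its 5′ end, was the gene called: it fell by 0.73 at low intensity (edgeR adjusted p = 0.0328) and by 0.91 on the static array (adjusted p = 0.0102), and had a fold change of -0.04 at high intensity. The Xrn1 direction at low intensity held on the count scales and flipped to 0.63 on log2(TPM + 1), where the median of all genes was 0.64.

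Markers of other cells moved with some groups. Mnx1 had counts in all 21 deeper libraries. The 7 neuronal markers summed to 3671 ± 144 CPM in the controls, 3201 ± 454 at low intensity, 2989 ± 511 at high intensity, 3540 ± 288 on the static array and 3602 ± 132 on the actuated array. At high intensity 0 of 7 were positive (median -0.31), with 0 called by edgeR. At an unadjusted p under 0.05, 5 were lower, where 1072 of the 14730 genes fitted were. At low intensity 0 of 7 were positive (median -0.25), with 1 called, where 0.597% of all genes were. The 7 motor neuron markers summed to 105 to 162 CPM in the controls, 70.5 to 118 at low intensity, 75.2 to 128 at high intensity, 73.7 to 89.1 on the static array and 95.7 to 131 on the actuated array. Slc5a7, the choline transporter of cholinergic neurons, fell by 1.88 on the static array (edgeR adjusted p = 0.00392), and the neuronal gene Elavl4 by 0.59 at low intensity (adjusted p = 0.0370). Progenitor markers (8 genes) summed to 623 to 797 CPM in the controls, 685 to 1019 at low intensity, 675 to 912 at high intensity, 774 to 959 on the static array and 632 to 883 on the actuated array. At low intensity 4 were positive and 4 negative (median 0.04). At an unadjusted p under 0.05, 1 was lower, where 974 of the 14730 genes fitted were. Of the 8 markers, Nes rose by 1.43 (edgeR adjusted p = 0.0443), a call lost in 16 of 21 fits without 1 library.

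Fibroblast markers (7 genes) were all positive at both intensities, with 0 called by edgeR. At an unadjusted p under 0.05, 4 and 1 passed (high, low), where 15.9 and 15.2% of all genes did. The 7 genes summed to 364 to 929 CPM in the controls, 276 to 2582 at low intensity and 940 to 2416 at high intensity. On the static array they summed to 245 to 845 CPM and on the actuated array to 156 to 611 CPM. Muscle markers (3 of 7 fitted) summed to 8.46 to 66.0 CPM in the controls and 16.3 to 171 CPM at high intensity, mostly from Des, and Myog had 4 counts in all deeper libraries together. Pluripotency markers (1 of 5 fitted) summed to 2.69 to 17.3 CPM in the controls and 4.09 to 18.7 CPM at high intensity, and Nanog had 0 counts in the controls. The fibroblast sums at high intensity all lay above the highest control, at 929 CPM, and the static mean of 459 CPM lay below the control mean of 533 CPM. The part of these cell types in the histone levels was not tested.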

How the data were processed

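RNA from motor neuron spheroids was sequenced in 26 libraries of 5 labelled groups. The authors deposited expected counts (estimated counts per gene), written as whole numbers and not scaled for depth. They also deposited TPM values, which the authors scaled for transcript length and to 1000000 per library. Per the submitters' processing notes, BWA 0.7.12-r1039, bedtools 2.25.0, STAR and Salmon were used, with builds mm10, hg19 and GRCm39 listed. Their roles, the strand setting and the handling of reads shared by copies have no source at hand. Library input was nominally 4 ng, with 8 unnamed samples at full volume.

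Rounded counts of the whole table were fitted with edgeR 4.0.16 (R 4.3.3): TMM scaling, filterByExpr (14730 genes), 1 coefficient per group, quasi-likelihood F-test, Benjamini-Hochberg adjustment per comparison, threshold 0.05. The fit used the 21 libraries with over 1000000 protein-coding counts, since the common dispersion was 0.0923 there and 0.251 in all 26. Scripts were tested on simulated data. All 325 library pairs differed by more than sampling noise (chi-square per degree of freedom at least 4.74), so none was merged. Same-numbered libraries were treated as unpaired, as not every correlation of their deviations was over 0.1. This rule cannot exclude pairing. Between actuated and static arrays, replicates 1 and 4 had r of 0.14 and 0.18, and replicate 2 had -0.12.

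The members and gene lists, and the rule for named members, were chosen with earlier results of these data known. Named were H2ac10, the first and second by TPM in each class, members passing the threshold, and the 3 most like H2ac10. Alternatives were DESeq2 1.42.0, limma 3.58.1 (voom, or log2(TPM + 1) and log2(TPM + 0.1)), other filters, scalings and thresholds, a replicate block, the groups compared alone, all 26 libraries, and leaving out each library. A restriction to members with at least 50% unique stretches was added after seeing the data. PCR duplicates could not be told apart, so depth limits cover counting error only: a count of 0 allows up to 1.93 CPM in the shallowest and 0.228 CPM in the deepest of the 21 libraries.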

Additional observations from a re-analysis of the deposited data

Results flagged for a closer look

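A library was set apart where its gap to the nearest of its group, over the group's range, exceeded Dixon's 95% critical value. Of 80 groups of values tested, 10 had such a library, where chance gives about 1 in 20. High-intensity replicate 3 accounted for 7 of them. It had 1745 CPM of the family beside 565 to 750 CPM in the other 3, 487 CPM of H2bc genes beside 137 to 195 CPM, and 283 CPM of H4c genes beside 90.1 to 109 CPM. Of single members it had 29.8 CPM of H2ac10 (others 9.73 to 13.1), 144 CPM of H2bc18 (others 23.7 to 40.1), 54.4 CPM of H3c13 (others 14.1 to 18.2) and 89.1 CPM of H3c2 (others 15.7 to 23.2).

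Control replicate 2 had 4.21 CPM of H2ac10, where the other 4 controls had 0 to 1.16 CPM. Low-intensity replicate 5 had 218 CPM of H2ac18, where the other 4 had 92.3 to 112 CPM. Actuated replicate 3 had 35.5 CPM of H2ac15, where the other 3 had 19.2 to 20.9 CPM. The cause of these gaps was not tested.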

How the results depend on the processing

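The number of members called was not stable, and each cause was not tested. The order here is high, low and static against control, where 2, 1 and 2 members were called. Without H2ac10, which was chosen from these libraries, 1, 1 and 1 were called. The counts that follow can include H2ac10, and its part in them is no test. EdgeR called 0, 0 and 0 with all 26 libraries, with only the groups compared and with the replicate block, and limma-voom called 0, 0 and 0. DESeq2 called 6, 6 and 6. Without the low-count filter edgeR called 18, 15 and 19, and at an adjusted p under 0.10 it called 4, 4 and 5. On log2(TPM + 1) limma called 29, 34 and 19 members, where 2324, 5440 and 1091 of the 14730 genes fitted were called. On log2(TPM + 0.1) it called 27, 34 and 18, where 2292, 5537 and 1145 of all genes were called. Among members with at least 50% unique stretches 0, 0 and 1 were called. A filter of 1 CPM in 4 libraries gave 2 at low intensity. For actuated against static and for high against low, where 0 were called, the fit without a filter called 1 each. Leaving out single libraries gave 0 to 4, 0 to 3 and 0 to 4 members against the controls, and 0 to 0 in both other comparisons.

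The difference in mean log2 summed family level was 1.15, 1.28 and 1.40 with TPM and, at high intensity, -0.0305 with all 26 libraries. Without single libraries it ranged from 0.17 to 0.71 (high), 0.33 to 0.63 (low), 0.56 to 0.90 (static), -0.24 to 0.10 (actuated against static) and -0.31 to 0.23 (high against low). The number of all genes called ranged from 0 to 397, 2 to 264, 18 to 141, 0 to 0 and 0 to 3 in the same order. Against the controls it was 68, 88 and 105 in the 21 libraries (high, low, static), 466, 470 and 380 with DESeq2, 700, 660 and 459 without the low-count filter, 294, 378 and 234 at an adjusted p under 0.10, 2, 8 and 36 with the replicate block, 6, 4 and 2 with all 26 libraries, and 2324, 5440 and 1091 on log2(TPM + 1).

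The replicate block removed every call of a member against the controls. Correlations of same-numbered deviations were between -0.22 and 0.18, and not every library correlated best with its own number. The H2ac15 calls were lost in 4 of 10 alternatives other than leaving out a library, at high intensity (adjusted p up to 0.280) and at low intensity (up to 0.229), as was the H2ac6 call (up to 0.231). Left out singly, the libraries that ended the H2ac15 call at high intensity were control 1, 3, 5 and 6, low intensity 2, high intensity 1, 2 and 3, static 1 and 2, and actuated 1, 2 and 4. At low intensity they were control 1 and 5, low intensity 1, 2 and 5, and actuated 1 and 4. The H2ac6 call ended without control 1, 2, 3 or 6, static 1, 2 or 4, or actuated 1 or 4. Of the other genes named, the calls lost in fits without 1 library were 13 of 21 for Top2a at high and 9 at low intensity, 16 for Cenpe, 11 for Rrm1, 9 each for Mki67 and Bub1b, 16 for Nes, 10 for Elavl4, 7 for H1f4, 6 for Xrn1 at low intensity and 2 on the static array, and 1 for Slc5a7 (without static 4, adjusted p = 0.0562). Each of these calls was also lost in 3 to 6 of 10 other alternatives. The Slc5a7 and Xrn1 calls on the static array were lost with all 26 libraries and on both TPM scales. Their smallest falls in the 10 alternatives were -0.80 and -0.21. On log2(TPM + 1) and log2(TPM + 0.1) 3 named genes that are no members changed direction: H3f3b at high intensity (0.59 and 0.59), and Slbp (0.64 and 0.66) and Xrn1 (0.63 and 0.68) at low intensity. Depth limits H2ac10 in the controls, where it rests on 0 to 12 counts.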
